A study of Mus musculus with 19 samples.

Results

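Naive T cells and the memory cells that descend from them share a set of transcription factors and receptors that keep them quiescent, long lived and circulating through lymphoid tissue. The 9 genes of this set described here are Tcf7, Lef1, Satb1, Bach2, Foxo1, Klf2, Ccr7, S1pr1 and Il7r. They were chosen by symbol, from knowledge of T cell biology, out of 22878 gene symbols in the deposited RNA tables. Where a symbol had several transcripts, only the one with the highest read sum across the 16 RNA libraries was used, together with the chromatin immunoprecipitation (ChIP) peaks that the authors' peak lists assign to the gene. All 9 genes passed the filter on low values in both experiments.

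The cells were mouse Th2 cells, CD4 T cells driven in culture towards production of type 2 cytokines, and the study removed either Bcl11b or Gata3. Bcl11b is a zinc finger factor that sets T cell identity, and GATA3 is the master factor of the Th2 lineage. The 8 RNA groups held 2 libraries each. In the Bcl11b experiment the groups were late Bcl11b KO, late Bcl11b WT, early Bcl11b KO and early Bcl11b WT. In the Gata3 experiment they were late Gata3 KO, late Gata3 WT, early Gata3 KO and early Gata3 WT. Per the design text, the Bcl11b cultures all came from naive CD4 T cells of Bcl11bfl/fl-CreERT2 mice, so the WT cells also carried the floxed alleles and the tamoxifen-inducible recombinase. The KO cultures received 4-OHT, the active form of tamoxifen, and the WT cultures did not, so deletion and drug cannot be told apart. Early cells were treated during the first 4 days under Th2 conditions. Late cells were primed for 4 days, rested for 1 day in IL-2 medium, and then treated during a second 4 days under Th2 conditions. For the Gata3 experiment the labels say early, late, KO and WT but not the mouse strain, the way of deletion or the culture, and no age is stated for any animal. Nothing states that the 2 libraries of a group came from separate animals or cultures, so the p-values measure the spread between these libraries.

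As background, Tcf7 (TCF-1) and Lef1 are related HMG-box factors that keep T cells able to renew and that also take part in thymic T cell commitment. Foxo1 is a forkhead factor that is active while growth signals are low, and in T cells it is known to drive expression of Klf2, Ccr7, S1pr1 and Il7r. Klf2 in turn is known to drive S1pr1, the receptor that lets T cells leave lymph nodes. Ccr7 guides them into lymph nodes, and Il7r encodes the receptor chain for the survival cytokine IL-7. Satb1 organises chromatin in T cells, and Bach2 is a repressor that holds back effector genes. In bulk RNA, fewer cells of a type and less RNA per cell cannot be told apart.

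Reads assigned to genes numbered 4687559 to 14577958 per library in the Bcl11b experiment and 5117529 to 9892744 in the Gata3 experiment. The 2 early Bcl11b WT libraries stood apart. Their gene reads were 16.9% to 20.7% of the library total behind the authors' RPKM, against 40.7% to 60.3% in the other 14 RNA libraries. Their reads over odorant and vomeronasal receptor genes, which T cells should not express, were 3.77 to 4.86 per kilobase, against at most 0.507 elsewhere. In the Gata3 experiment each early WT library resembled the late WT library of the same number more than the other library of its own group: the mean chi-square per gene was 4.51 for the libraries numbered 1 and 2.62 for those numbered 2, against 7.52 to 14.8 between replicates of a group. They differed by more than sampling noise and were kept as separate samples, which does not show that they had separate sources. Whether same-numbered early and late WT libraries share a source is not stated and was not tested. The stage comparisons below treat them as independent. Bcl11b had 66.5 and 54.1 CPM (read counts scaled to library size by TMM) in early Bcl11b KO and 126 and 128 CPM in early Bcl11b WT, and 75.6 and 137 CPM in late Bcl11b KO and 139.7 and 181 CPM in late Bcl11b WT. It was lower by the test in early KO (log2 change -1.08, adjusted p = 0.0232) but not in late KO (-0.59, adjusted p = 0.421). Gata3 had 425 and 419 CPM in early Gata3 KO and 1178 and 1279.5 CPM in early Gata3 WT, and 1090.4 and 954 CPM in late Gata3 KO and 1382 and 1327 CPM in late Gata3 WT. Reads from the undeleted parts of the targeted gene may be among these, so the counts do not measure the share of cells with the deletion. Of 8 listed T cell markers, 7 were in the tables and had reads in every group, and Cd4 lay between 629 and 3778 CPM over the libraries. The summed T cell markers were higher in KO than in WT, without overlap, in early Bcl11b, late Bcl11b and late Gata3 cultures. In early Gata3 cultures the KO and WT sums overlapped. The values stand with each comparison below.

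RefSeq promoter sequences on GRCm38.p6 were at hand for 7 members, in 15 windows. They are shown because the data bear on them: 7 of the windows overlapped a Bcl11b ChIP peak of late WT Th2 cells and 1 also a GATA3 peak. Printed here are the 250 bases before the transcription start for 4 members, 5′ to 3′ on the gene's strand, with capitals marking GC boxes (GGGCGG) in Lef1, Foxo1 and Klf2 and ETS core letters (CCGGAA or CAGGAA) in Il7r, on either strand. Of the Lef1 windows, the one shown overlaps peaks of both antibodies. It precedes the start used by the authors, at 131112790, and lies inside the RefSeq gene, which begins at 131110297.
Lef1, chr3:131112541-131112790, plus strand: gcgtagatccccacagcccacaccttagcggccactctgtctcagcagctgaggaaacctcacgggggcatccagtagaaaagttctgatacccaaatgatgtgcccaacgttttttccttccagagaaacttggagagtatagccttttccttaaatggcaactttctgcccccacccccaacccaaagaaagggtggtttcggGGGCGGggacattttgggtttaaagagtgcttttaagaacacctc
Foxo1, chr3:52268087-52268336, plus strand: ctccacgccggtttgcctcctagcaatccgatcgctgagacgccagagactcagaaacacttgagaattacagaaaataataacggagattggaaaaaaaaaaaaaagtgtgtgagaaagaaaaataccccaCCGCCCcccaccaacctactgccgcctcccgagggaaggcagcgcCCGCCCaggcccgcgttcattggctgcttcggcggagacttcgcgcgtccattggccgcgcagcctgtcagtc
Klf2, chr8:72318812-72319061, plus strand: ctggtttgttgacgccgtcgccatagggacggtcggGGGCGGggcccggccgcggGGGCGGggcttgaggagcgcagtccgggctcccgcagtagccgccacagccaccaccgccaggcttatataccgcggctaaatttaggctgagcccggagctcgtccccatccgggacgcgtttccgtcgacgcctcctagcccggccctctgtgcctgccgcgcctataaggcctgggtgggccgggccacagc
Il7r, chr15:9529877-9530126, minus strand: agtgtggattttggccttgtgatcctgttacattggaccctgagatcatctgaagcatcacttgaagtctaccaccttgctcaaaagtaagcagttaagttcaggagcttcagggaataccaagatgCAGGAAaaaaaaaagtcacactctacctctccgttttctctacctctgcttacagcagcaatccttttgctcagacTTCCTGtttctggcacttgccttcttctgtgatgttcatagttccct
None of these 4 windows held the searched GATA letters on either strand, which were AGATAA and its variants AGATAG, also TGATAA and its variants TGATAG. They also held no TCF/LEF letters, CTTTGAA or else CTTTGAT, no forkhead letters, GTAAACA, and no RUNX letters, TGTGGT or else TGCGGT. Among 32851 RefSeq promoter windows, GATA letters occurred in 26.5%, TCF/LEF letters in 7.48%, forkhead letters in 3.17%, RUNX letters in 18.6%, ETS letters in 35.1% and a GC box in 32.7%. GATA letters occurred in 2 of the 15 member windows, 1 of Lef1 and 1 of Bach2. A match is a description of the letters and not a binding site.

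Per length of transcript, by the median over the 16 libraries, Satb1 was the most abundant member and Klf2 the least abundant, though Bach2 lay below Klf2 in early Bcl11b KO, early Bcl11b WT and early Gata3 KO by group mean, as did S1pr1 in early Gata3 KO. Satb1 lay between 48.8 and 157 RPKM over the 16 libraries, Il7r between 12.4 and 84.8 RPKM, and Lef1 between 9.71 and 44.6 RPKM. Ccr7 spanned 8.25 to 38.5 RPKM, Foxo1 6.03 to 21.9 RPKM, Tcf7 1.42 to 31.0 RPKM and S1pr1 1.21 to 19.9 RPKM. Bach2 ranged from 1.90 to 5.17 RPKM and Klf2 from 0.197 to 6.02 RPKM. RPKM of the early Bcl11b WT libraries is scaled to a total of which few reads fell on genes, so those values read low for every gene. By group mean, Tcf7 was highest in early Bcl11b KO (23.5 ± 10.7 RPKM, SD, n = 2) and next in early Gata3 KO (22.9 ± 5.95 RPKM, n = 2), and these groups overlapped. Its lowest means were 2.12 ± 0.707 RPKM in early Gata3 WT and 1.82 ± 0.565 RPKM in late Bcl11b WT, which also overlapped. Il7r followed another order: it was lowest in early Gata3 KO at 14.7 ± 3.32 RPKM and highest in late Bcl11b KO at 73.8 ± 9.33 RPKM. Of the 8 ranked groups neighbouring ranges overlapped everywhere except between late Bcl11b WT (52.4 ± 6.16 RPKM) and early Bcl11b WT (19.2 ± 4.43 RPKM). That gap was absent in CPM, where late Bcl11b WT had 348 and 309.6 and early Bcl11b WT 361 and 300.1. In CPM early Gata3 KO, with 90.8 and 64.8, lay below every other library. S1pr1 was lowest in early Gata3 KO, at 1.28 ± 0.0970 RPKM, with no overlap with the next group, early Bcl11b WT at 4.75 ± 2.49 RPKM. The plot of levels by library shows the same data on the CPM scale.

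**Figure D1:**
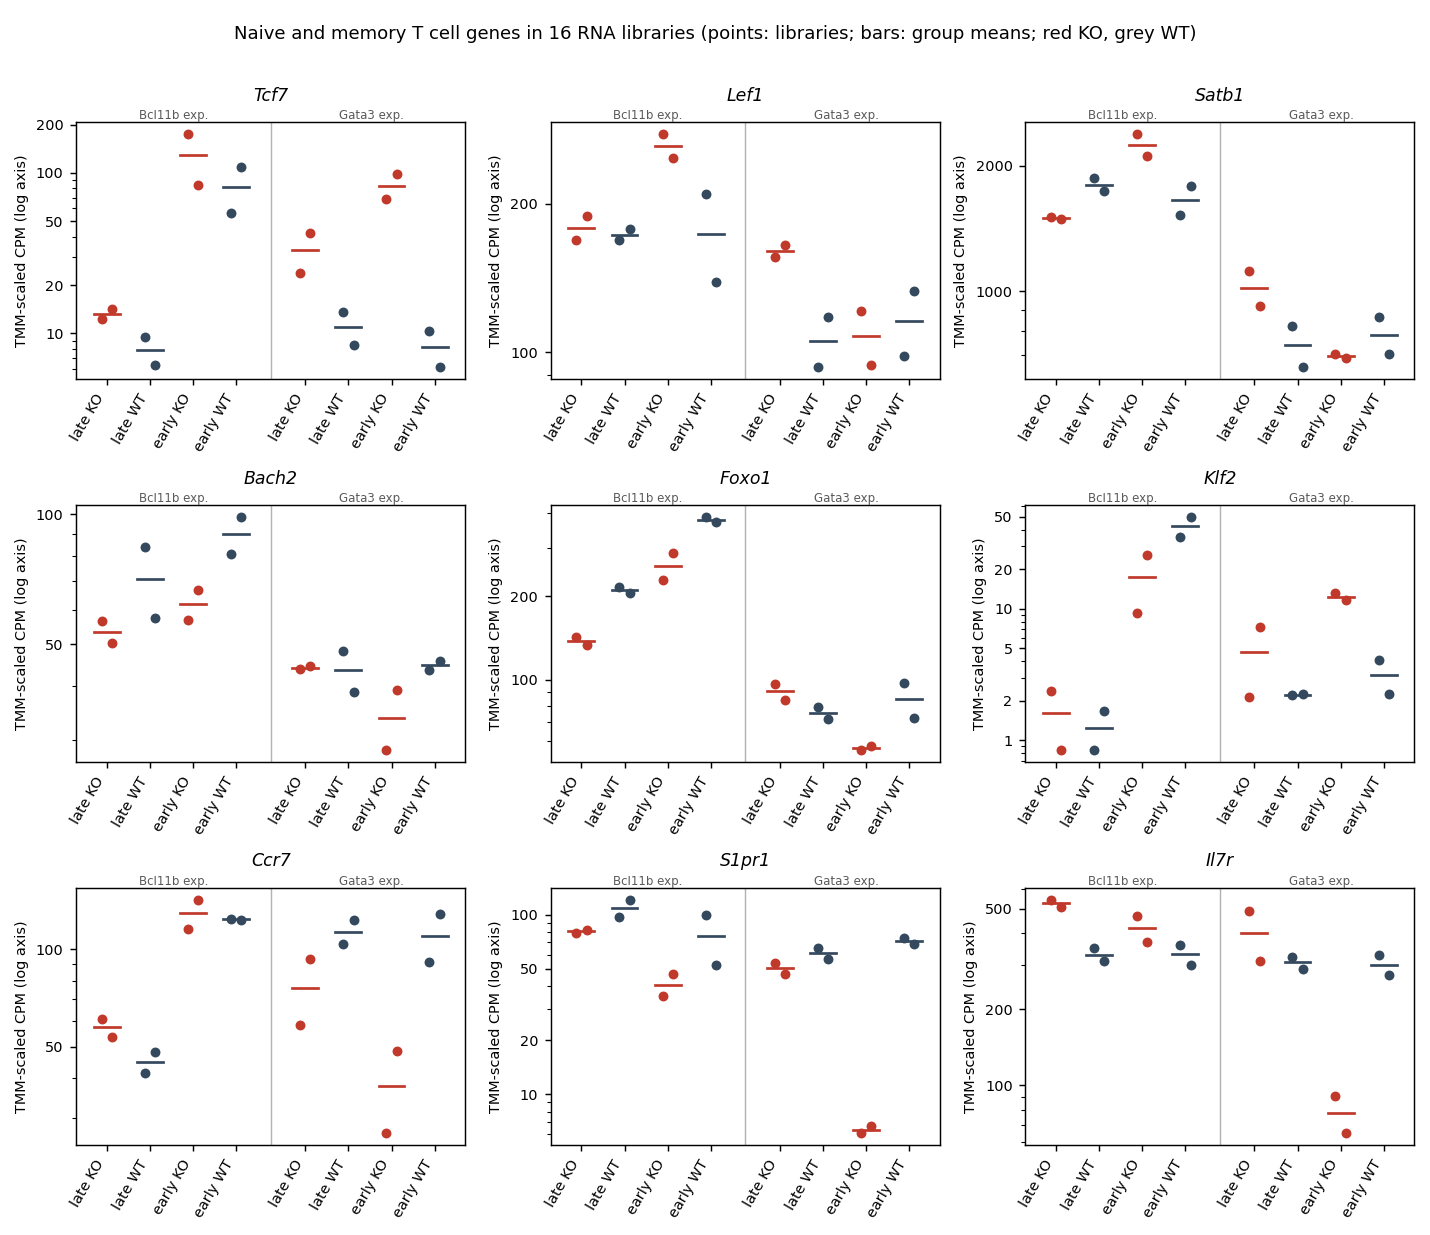
Levels of the 9 genes in each of the 16 RNA libraries as TMM-scaled CPM on a log axis; points are libraries, bars are group means, red is KO and grey is WT. S1pr1 and Il7r sit lowest in early Gata3 KO, where S1pr1 had 6.06 and 6.64 CPM, and Tcf7 is high in early Gata3 KO, at 68.6 and 98.0 CPM.

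The set split in the early Gata3 comparison: in early Gata3 KO cells Tcf7 and Klf2 rose, while S1pr1, Il7r, Ccr7 and Foxo1 fell, relative to early Gata3 WT cells. Thus 6 of 9 members passed an adjusted p of 0.05 in edgeR's quasi-likelihood test, against 30.7% of the 10601 genes tested. Of all genes 14% rose (1481) and 16.8% fell (1776). The median log2 change was -0.41 over the 9 members and -0.0025 over all genes tested. Tcf7 had 68.6 and 98.0 CPM in early Gata3 KO, against 10.3 and 6.14 CPM in early Gata3 WT. Both KO libraries were far above both WT libraries, a log2 change of 3.35 ± 0.35 (SE, n = 2 and 2; adjusted p = 6.04e-05). Lef1, its relative, had 121 and 94.3 CPM in KO and 98.0 and 133 CPM in WT, and these ranges crossed (log2 change -0.10 ± 0.18, adjusted p = 0.720). Whether the 2 HMG-box factors differed in their response was not tested. Klf2 had 13.1 and 11.6 CPM in early Gata3 KO against 4.07 and 2.25 CPM in WT, a rise of 1.97 ± 0.45 on the log2 scale (adjusted p = 0.00854). It rested on 101 to 121 reads per KO library and 18 to 30 per WT library, and the call was lost without WT replicate 2 (adjusted p = 0.0589) or KO replicate 1 (adjusted p = 0.0519).

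The receptors of the set moved the other way. S1pr1 had 6.06 and 6.64 CPM in early Gata3 KO, against 73.7 and 68.4 CPM in early Gata3 WT. That is 11.2-fold lower in KO (log2 change -3.48 ± 0.16, adjusted p = 5.11e-07), with libraries of each group close together. Il7r had 90.8 and 64.8 CPM in KO against 327 and 274 CPM in WT and fell 3.86-fold (log2 change -1.95 ± 0.23, adjusted p = 0.000122). For Ccr7 the values were 27.0 and 48.3 CPM in KO and 91.1 and 129 CPM in WT. The groups did not overlap, and Ccr7 fell by 1.55 ± 0.30 on the log2 scale (adjusted p = 0.00286). Foxo1 had 55.4 and 57.7 CPM in early Gata3 KO and 97.3 and 72.4 CPM in WT, a smaller fall of 0.58 ± 0.15 on the log2 scale (adjusted p = 0.0158). This last call was lost without WT replicate 1 (adjusted p = 0.142), KO replicate 1 (adjusted p = 0.0981) or KO replicate 2 (adjusted p = 0.0827). Klf2, known as an activator of S1pr1, was higher in the same comparison, and its part in the S1pr1 level was not tested. Bach2 had 28.5 and 39.1 CPM in KO and 43.6 and 45.8 CPM in WT (log2 change -0.41 ± 0.17, adjusted p = 0.107), and Satb1 had 706 and 689 CPM in KO and 866 and 706 CPM in WT (log2 change -0.17 ± 0.15, adjusted p = 0.439). Neither passed the test.

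Markers of CD8 T cells moved with these changes: Cd8a and Cd8b1 together had 31.0 to 39.0 CPM in early Gata3 KO and 8.39 to 11.5 CPM in early Gata3 WT, while 7 T cell markers in the tables had 4208 to 4223 CPM in KO and 3802 to 4256 CPM in WT. Both CD8 markers rose. Their part in the results for the 9 genes was not tested. B cell markers summed to at most 5.68 CPM in every Gata3 group, and Ms4a1, Pax5 and Blk had no read in either early Gata3 group.

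**Figure D2:**
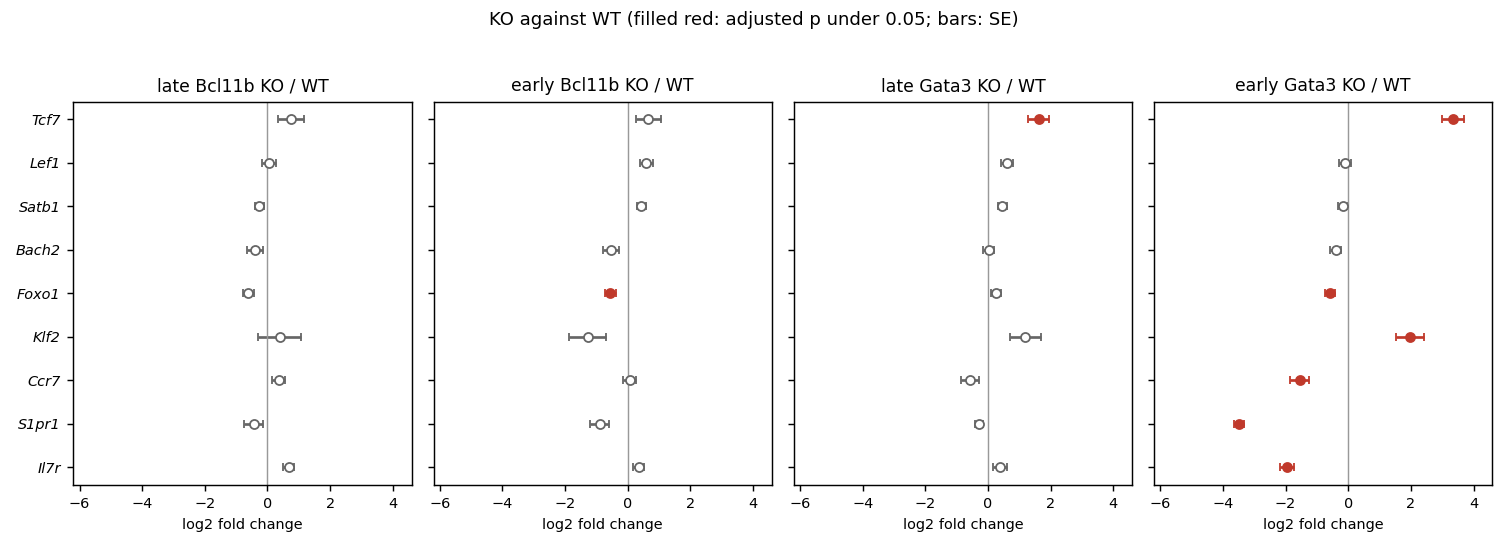
Log2 fold changes of the 9 genes, KO over WT, in late and early Bcl11b cultures and late and early Gata3 cultures; bars are standard errors and filled red points passed an adjusted p of 0.05. In early Gata3 cultures Tcf7 (3.35) and Klf2 (1.97) lie to the right and S1pr1 (-3.48), Il7r (-1.95), Ccr7 (-1.55) and Foxo1 (-0.58) to the left, while in late Gata3 cultures only Tcf7 (1.61) passed.

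In late Gata3 KO against late Gata3 WT, 1 of 9 members passed the test, against 14% of the 10601 genes (8.44% rose and 5.59% fell). Tcf7 had 23.9 and 42.1 CPM in late Gata3 KO and 13.5 and 8.47 CPM in late Gata3 WT. The groups did not overlap, and Tcf7 rose by 1.61 ± 0.34 on the log2 scale (adjusted p = 0.0114). That call was lost without late WT replicate 2 (1.32, adjusted p = 0.0757) or late KO replicate 2 (1.12, adjusted p = 0.0943). CD8 markers summed to 19.9 to 24.7 CPM in late Gata3 KO and 11.04 to 12.04 CPM in late Gata3 WT, and 1 of the 2 rose. T cell markers summed to 4868 to 5230 CPM in KO and 3998 to 4320 CPM in WT, and 2 of 7 rose. The part of these markers was not tested. Lef1 had 156 and 165 CPM in late Gata3 KO and 93.0 and 118 CPM in late Gata3 WT, and Satb1 had 1115 and 919 CPM in KO and 824 and 655 CPM in WT. In both genes the KO libraries were the higher ones without overlap, by 0.61 ± 0.18 for Lef1 (adjusted p = 0.0517) and 0.46 ± 0.15 for Satb1 (adjusted p = 0.0798), short of the threshold. DESeq2 called both, with adjusted p = 0.0164 for Lef1 and 0.0436 for Satb1.

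None of the 3 receptors passed in late Gata3 KO in the main edgeR fit, which had the filter on low values and no term for replicate number. With such a term (the replicate block) edgeR called Ccr7 (adjusted p = 0.00372) and Il7r (adjusted p = 0.0442). Without the filter it called Ccr7 (adjusted p = 0.00741). S1pr1 had 54.0 and 46.4 CPM in KO and 65.4 and 56.6 CPM in WT (log2 change -0.29 ± 0.13, adjusted p = 0.206). Il7r had 488 and 312 CPM in KO, against 324 and 290.1 CPM in WT, and Ccr7 had 58.5 and 93.7 CPM in KO, against 104 and 123 CPM in WT. By group mean Il7r lay above WT and Ccr7 below it, with log2 changes of 0.38 ± 0.22 (adjusted p = 0.301) and -0.56 ± 0.28 (adjusted p = 0.244). The Il7r groups overlapped. Klf2 had 2.15 and 7.30 CPM in KO and 2.20 and 2.25 CPM in WT, so 1 KO library carried the difference; the log2 change of 1.19 ± 0.50 (adjusted p = 0.156) became -0.046 without late KO replicate 2. Foxo1 had 96.7 and 84.5 CPM in KO and 79.4 and 71.8 CPM in WT (log2 change 0.26, adjusted p = 0.315). Bach2 had 43.8 and 44.6 CPM in KO, inside the WT values of 48.4 and 38.8 CPM (log2 change 0.022, adjusted p = 0.951).

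The Gata3 KO effect itself differed between the stages for 4 of 9 members, against 12.2% of genes tested (the late effect was the higher in 7.74%, 820 genes, and the lower in 4.47%, 474 genes; 602 and 667 on the RPKM scale). For S1pr1 the effect was -0.29 late and -3.48 early, a late minus early difference of 3.20 ± 0.21 (adjusted p = 3.20e-05). For Il7r it was 0.38 late and -1.95 early, a difference of 2.33 ± 0.31 (adjusted p = 0.00132). Both held in each of the 8 fits that left out 1 library. Foxo1 differed by 0.84 ± 0.21 (adjusted p = 0.0313) and Tcf7 by -1.73 ± 0.48 (adjusted p = 0.0462), but the call for Foxo1 was lost in 6 and that for Tcf7 in 5 of those 8 fits. Gata3 RNA itself fell less in late KO, by 0.41 ± 0.11 on the log2 scale (adjusted p = 0.0361), than in early KO, by 1.54 ± 0.11 (adjusted p = 5.80e-06), and this difference passed the test (1.14 ± 0.16, adjusted p = 0.00148). Its part in the stage differences was not tested.

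Set directly against each other, late and early Gata3 KO cells differed in 7 of 9 members, against 24.5% of genes tested (14.3% rose, 1513 genes, and 10.3% fell, 1087 genes; 1175 and 1359 on the RPKM scale). In late KO relative to early KO, S1pr1 rose by 2.98 ± 0.16 (adjusted p = 3.34e-06), Il7r by 2.36 ± 0.23 (adjusted p = 7.61e-05) and Ccr7 by 1.03 ± 0.30 (adjusted p = 0.0308), all on the log2 scale. Smaller rises were those of Foxo1 (0.68, adjusted p = 0.0105), Lef1 (0.58, adjusted p = 0.0433) and Satb1 (0.54, adjusted p = 0.0287). Tcf7 fell by 1.31 ± 0.31 (adjusted p = 0.0122), and Klf2 (-1.27, adjusted p = 0.0570) and Bach2 (0.39, adjusted p = 0.138) did not pass. With 1 library left out the number called ranged from 3 to 8, and it was 3 without early KO replicate 1, early KO replicate 2 or late KO replicate 1, while S1pr1 and Il7r were called in all 8 of these fits. Late and early Gata3 WT cells, by contrast, gave 0 of 9 members called, and 0% of 10601 genes, in edgeR. Among all genes 128 had an unadjusted p under 0.05 there and none of the 9 members did; DESeq2 also called 0 genes, and limma on log2(RPKM + 0.1) called 1. The largest WT difference among the members was that of Klf2, -0.50 ± 0.53. These WT libraries are those that resembled each other by replicate number.

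**Figure D3:**
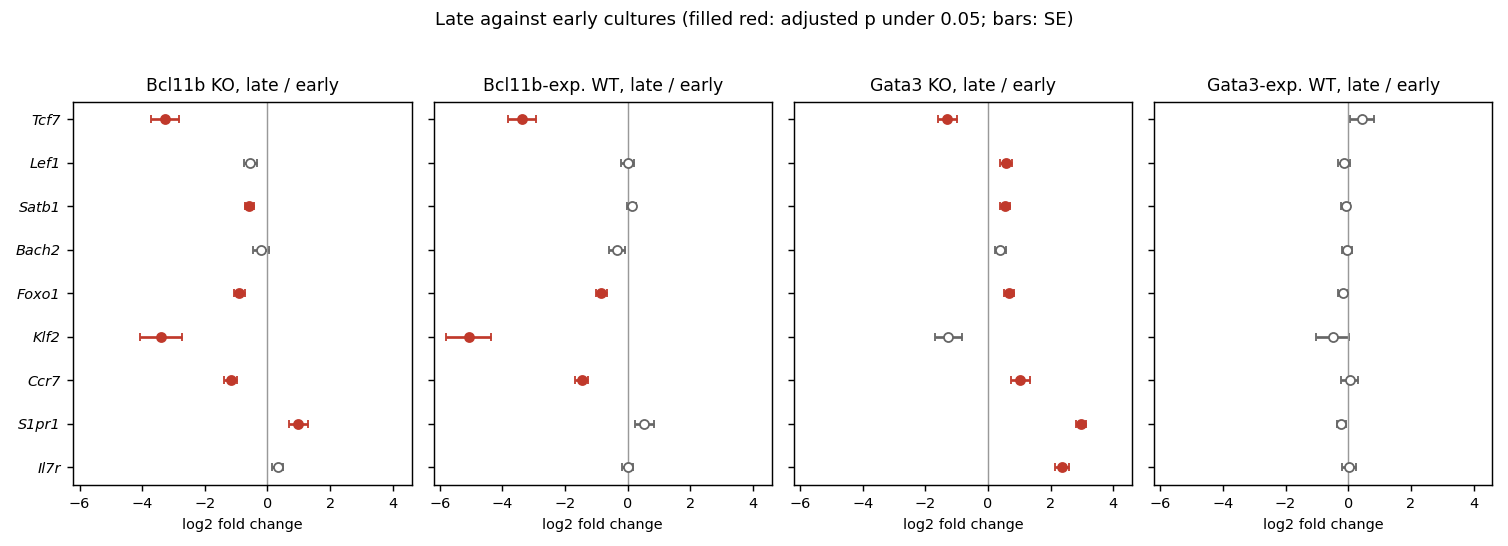
Log2 fold changes of the 9 genes, late over early, in Bcl11b KO, Bcl11b-experiment WT, Gata3 KO and Gata3-experiment WT cultures; bars are standard errors and filled red points passed an adjusted p of 0.05. Tcf7 and Klf2 lie far to the left in both Bcl11b panels (-3.28 and -3.41 in KO, -3.37 and -5.08 in WT), S1pr1 (2.98) and Il7r (2.36) far to the right in Gata3 KO, and no point passed in Gata3-experiment WT.

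In the Bcl11b experiment the share of members that passed between KO and WT was not above that of all genes. The common variation between libraries of a group (edgeR's biological coefficient of variation) was 0.281 there, against 0.125 in the Gata3 experiment. Counts called are therefore not comparable between the experiments. In early Bcl11b KO against early Bcl11b WT, 1 of 9 members passed, against 21% of the 10870 genes tested (11% rose, 1193 genes, and 10.1% fell, 1095 genes; 6554 and 335 on the authors' RPKM scale with limma). Foxo1 had 229 and 287 CPM in early Bcl11b KO and 388 and 371 CPM in early Bcl11b WT, without overlap. It fell by 0.56 ± 0.17 on the log2 scale (adjusted p = 0.0421). On the authors' RPKM scale its difference was 0.55 in the other direction (limma on log2(RPKM + 1), adjusted p = 0.0523), a scale on which the median gene also moved by 0.86; the call was also lost in 6 of 8 fits that left out 1 library, all but those without early WT replicate 2 or early KO replicate 2. S1pr1 had 35.1 and 46.4 CPM in KO and 99.3 and 52.6 CPM in WT (log2 change -0.90 ± 0.31, adjusted p = 0.0629). Lef1 had 277 and 248 CPM in KO and 209 and 139 CPM in WT (0.59 ± 0.21, adjusted p = 0.0711), and Satb1 had 2383 and 2105 CPM in KO and 1522 and 1792 CPM in WT (0.44 ± 0.14, adjusted p = 0.0547). These 3 genes did not overlap between groups but missed the threshold in the main edgeR fit. DESeq2 called all 3 (adjusted p = 0.0204 for S1pr1, 0.0463 for Lef1 and 0.0352 for Satb1). Without the filter edgeR called Lef1 (adjusted p = 0.0254) and Satb1 (adjusted p = 0.0145).

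Tcf7 had 174 and 83.5 CPM in early Bcl11b KO and 55.9 and 108 CPM in early Bcl11b WT, and Klf2 had 9.28 and 25.8 CPM in KO and 35.4 and 49.9 CPM in WT. The Tcf7 groups overlapped (log2 change 0.65 ± 0.40, adjusted p = 0.278), and the Klf2 change of -1.28 ± 0.60 (adjusted p = 0.156) had no overlap between groups but KO libraries far apart. Bach2 had 57.0 and 66.7 CPM in KO and 81.0 and 98.5 CPM in WT (adjusted p = 0.165). Ccr7 had 116 and 142 CPM in KO and 125 and 123 CPM in WT (adjusted p = 0.870), and Il7r had 469 and 370.0 CPM in KO and 361 and 300.1 CPM in WT (adjusted p = 0.195). None of these 5 genes passed. Macrophage and dendritic cell markers summed to 16.9 to 21.4 CPM in early Bcl11b KO and 36.2 to 74.2 CPM in early Bcl11b WT, and B cell markers to 102 to 134 CPM in KO and 103 to 104 CPM in WT. CD8 markers summed to 83.2 to 99.4 CPM in KO and 42.3 to 42.9 CPM in WT, where 1 of 2 rose, and mast cell and basophil markers to 42.9 to 45.4 CPM in KO and 5.45 to 12.2 CPM in WT, where the 1 tested rose. T cell markers summed to 4286 to 4709 CPM in KO and 2527 to 3186 CPM in WT, where 3 of 7 rose. Among them Cd4 had 2139 and 1876 CPM in KO and 856 and 629 CPM in WT. B cells express several of the 9 genes, and the part of these cell types in the early Bcl11b levels was not tested.

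In late Bcl11b KO against late Bcl11b WT, 0 of 9 members passed in the main edgeR fit, against 2.22% of genes tested. Of all genes 1.69% rose (184) and 0.524% fell (57), against 138 and 81 on the RPKM scale and 382 and 206 in DESeq2. Among the members 2 had an unadjusted p under 0.05. Those were Il7r and Foxo1, which DESeq2 and a fit of only the 4 libraries compared both called. Il7r had 543 and 509 CPM in late Bcl11b KO and 348 and 309.6 CPM in late Bcl11b WT, so KO was higher without overlap (log2 change 0.68 ± 0.18, adjusted p = 0.0861; 0.00731 in DESeq2). Foxo1 had 142 and 133 CPM in KO and 216 and 205 CPM in WT, so KO was lower without overlap (-0.61 ± 0.17, adjusted p = 0.108; 0.0261 in DESeq2). With both early Bcl11b WT libraries left out of the fit, Il7r was called (adjusted p = 0.0488). Tcf7 had 12.4 and 14.2 CPM in KO and 9.45 and 6.35 CPM in WT, a log2 change of 0.75 ± 0.42 (adjusted p = 0.550). By group mean Tcf7 was higher in KO in both experiments and at both stages, but it passed the test only in the Gata3 experiment, and its early Bcl11b change turned to -0.037 without early KO replicate 1. Ccr7 had 61.0 and 53.7 CPM in KO and 41.3 and 48.1 CPM in WT, and S1pr1 had 79.2 and 82.4 CPM in KO and 97.5 and 121 CPM in WT. Neither passed (adjusted p = 0.583 and 0.676). Bach2 had 56.7 and 50.3 CPM in KO and 84.1 and 57.5 CPM in WT, Lef1 had 169 and 189 CPM in KO and 169 and 178 CPM in WT, and Klf2, with 8 to 33 reads per library, had 2.36 and 0.844 CPM in KO and 0.840 and 1.66 CPM in WT. None of these passed either. In these libraries B cell markers summed to 22.1 to 32.9 CPM in KO and 5.60 to 5.92 CPM in WT. Macrophage and dendritic cell markers summed to 42.5 to 45.8 CPM in KO and 11.7 to 15.5 CPM in WT. T cell markers summed to 6128 to 6590 CPM in KO and 3639 to 3866 CPM in WT, where 2 of 7 rose. Among them Cd4 had 3778 and 3301 CPM in KO and 1288 and 1392 CPM in WT. The part of these cell types was not tested.

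Satb1 and Klf2 had Bcl11b effects of opposite sign at the stages, and neither difference passed in the main edgeR fit. Satb1 had 1504 and 1489 CPM in late Bcl11b KO and 1865 and 1738 CPM in late Bcl11b WT, a log2 change of -0.27 ± 0.14 (adjusted p = 0.514) against 0.44 in the early comparison above. For Satb1 the late minus early difference was -0.70 ± 0.20 with an adjusted p of 0.0936 in edgeR and 0.0363 in DESeq2. No member passed the test of this difference in the main edgeR fit, against 3.24% of genes tested, and 1 member had an unadjusted p under 0.05. Of all genes the late effect was higher in 1.95% (212) and lower in 1.29% (140), against 261 and 5793 genes on the RPKM scale.

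B cell and CD8 markers were lower in the late than in the early Bcl11b libraries. B cell markers summed to 5.60 to 5.92 CPM in late WT and 103 to 104 CPM in early WT, and to 22.1 to 32.9 CPM in late KO and 102 to 134 CPM in early KO. CD8 markers summed to 10.4 to 19.96 CPM in late WT and 42.3 to 42.9 CPM in early WT, and to 14.2 to 16.6 CPM in late KO and 83.2 to 99.4 CPM in early KO. Macrophage and dendritic cell markers summed to 11.7 to 15.5 CPM in late WT and 36.2 to 74.2 CPM in early WT. In KO they went the other way, with 42.5 to 45.8 CPM late and 16.9 to 21.4 CPM early. The part of these cell types in the stage differences was not tested. Comparing stages, 4 of 9 members fell in late Bcl11b WT relative to early Bcl11b WT, against 41.6% of genes called, 19.7% that rose (2141 genes) and 22% that fell (2386 genes); on the RPKM scale 7079 rose and 692 fell. Klf2 fell by 5.08 ± 0.72 on the log2 scale (33.8-fold, adjusted p = 0.000368) and Tcf7 by 3.37 ± 0.45 (10.4-fold, adjusted p = 0.000240). Ccr7 fell by 1.47 ± 0.22 (adjusted p = 0.000473) and Foxo1 by 0.85 ± 0.17 (adjusted p = 0.00296); on the RPKM scale, where the median gene moved by 1.04, Foxo1 turned to 0.58. The other 5 genes did not pass: Lef1 differed by -0.0078 ± 0.21 and Il7r by -0.0069 ± 0.18. In Bcl11b KO cells, late against early, 6 of 9 members were called, against 36.6% of genes (17% rose and 19.6% fell). Tcf7 (-3.28 ± 0.44, adjusted p = 0.000319), Klf2 (-3.41 ± 0.67, adjusted p = 0.00317), Ccr7 (-1.17 ± 0.21, adjusted p = 0.00203) and Foxo1 (-0.90 ± 0.17, adjusted p = 0.00258) fell there too. Satb1 also fell, by 0.58 ± 0.14 (adjusted p = 0.0102), and S1pr1 rose by 0.99 ± 0.31 (adjusted p = 0.0286). These last 2 calls were lost without early KO replicate 1 (adjusted p = 0.0983 for Satb1 and 0.0992 for S1pr1) and without either late KO replicate. Leaving the early Bcl11b WT libraries out of the fit left all 6 called and added Lef1 (-0.55, adjusted p = 0.0183).

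Across the 8 groups, each centred on its experiment, some members had similar profiles. The log2 group means of Lef1 and Satb1 had a Pearson r of 0.92, those of Bach2 and Foxo1 0.91, those of Tcf7 and Klf2 0.88, and those of S1pr1 and Il7r 0.83. Tcf7 and S1pr1 ran in opposite directions, with r = -0.77. Foxo1, by contrast, had r values of 0.70 with Ccr7, 0.60 with Klf2, 0.27 with S1pr1 and 0.20 with Il7r, the 4 members that it is known to activate. These are descriptions over 8 points that share libraries, and the early and late Gata3 WT points are close to each other. By the same measure the genes most alike, among 9985 genes that passed the filter in both experiments, were Akna for Tcf7 (0.99), Ulk1 for Lef1 (0.97), Ldb1 for Satb1 (0.98), Fam40a for Bach2 (0.97) and Lin37 for Foxo1 (0.997). They were Heatr2 for Klf2 (0.99), Otub2 for Ccr7 (0.99), Ost4 for S1pr1 (0.99) and Vkorc1 for Il7r (0.98).

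Other genes of the naive, quiescent and memory T cell state also moved in both directions in early Gata3 KO cells: of 34 tested, 11 rose and 12 fell, with a median log2 change of -0.082. Eomes, a T-box factor of memory and cytotoxic cells, had 204 and 207 CPM in early Gata3 KO and 1.22 and 0.376 CPM in early Gata3 WT (log2 change 8.01 ± 0.32, adjusted p = 2.90e-07). Cnr2, a cannabinoid receptor, rose by 2.11 and Il6ra, the IL-6 receptor chain, fell by 4.31 on the log2 scale. In late Gata3 KO 9 of the 34 rose and 2 fell, among the higher ones Eomes (3.48), Cnr2 (1.37) and the T cell signalling adaptor Themis (1.16). Early Bcl11b KO had 5 of 35 higher and 3 lower; Cd55 (3.52), Foxp1 (1.90) and Slfn2 (1.57) rose. In late Bcl11b KO 5 of 35 rose and 0 fell, with Cd55 (1.86), Btg2 (1.39) and Klf3 (1.76) among them. That count of 5 was 0 without late WT replicate 2 and 1 without any other late library. On the RPKM scale the early Bcl11b counts were 28 higher and 0 lower. For comparison, 14% of all genes tested rose and 16.8% fell in early Gata3 KO, and 8.44% and 5.59% in late Gata3 KO. In Bcl11b KO, 11% of all genes rose and 10.1% fell early, and 1.69% and 0.524% late. The list counts were not tested against these shares.

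Among known FoxO target genes outside the 9, 4 of 15 rose and 6 fell in early Gata3 KO, and 4 rose and 2 fell in late Gata3 KO. Bcl2l11, which encodes the death factor BIM, rose in both (1.53 late and 2.65 early), and the inhibitory receptor gene Ctla4 fell by 2.20 in early Gata3 KO. The metabolic regulator Txnip (1.37) and the cyclin Ccng2 (0.87) rose in late Gata3 KO. In early Bcl11b KO 2 of 17 rose and 5 fell, with Ccng2 (-1.76), the cell cycle inhibitor Cdkn1b (-1.79) and Ctla4 (-1.25) lower and Sesn3 (1.68) higher; on the RPKM scale, where the median gene moved by 0.86, 8 rose and 1 fell. In late Bcl11b KO 1 of 17 rose and 0 fell. The count of 4 that rose in early Gata3 KO was 2 without early WT replicate 2, and the count of 2 that fell in late Gata3 KO was 0 without late KO replicate 2. Of 7 tested partners and feedback genes of Tcf7 and Lef1, 3 rose and 3 fell in early Gata3 KO. The co-repressor Tle4 rose by 3.42 and the co-activator Bcl9l by 1.39, while Axin2 (-2.35), a feedback target of the Wnt pathway, and Jup (-4.00), which encodes plakoglobin, fell. In late Gata3 KO 1 rose, Tle4 (2.30), and 3 fell, Jup (-2.91), Axin2 (-1.89) and Tle3 (-0.81). In the Bcl11b experiment 1 of 8 changed early, Bcl9 (-2.10), and 0 late. On the RPKM scale 4 rose and 1 fell early. The shares of all genes tested that rose and fell were 14% and 16.8% in early and 8.44% and 5.59% in late Gata3 KO. They were 11% and 10.1% in early and 1.69% and 0.524% in late Bcl11b KO, and the list counts were not tested against them.

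Effector and Th2 genes were also counted in the same comparisons. In early Gata3 KO 15 of 29 effector and activation genes fell and 5 rose, with a median of -0.80: Il2ra fell by 2.20 and Icos by 2.04, and Havcr2 rose by 3.30. In late Gata3 KO 6 fell and 4 rose, counts that became 3 without late KO replicate 2 and 2 without late WT replicate 1. Of 14 Th2 genes 12 fell and 1 rose in early Gata3 KO (median -6.53) and 7 fell and 2 rose in late Gata3 KO (median -1.14); Il13 fell by 5.11 late and by 6.93 early. In early Bcl11b KO 7 effector genes rose (3 without early KO replicate 2) and 7 fell of 28, and 6 Th2 genes rose and 0 fell of 14, Il13 by 4.48 and Penk by 3.74. On the RPKM scale, where the median gene moved by 0.86, 20 effector genes rose and 0 fell and 14 Th2 genes rose. In late Bcl11b KO 3 effector genes rose and 3 fell of 28, and 2 Th2 genes rose and 0 fell of 14; without late WT replicate 1 the counts were 0, 1, 1 and 0. Genes in more than 1 list include Il6ra, Btg1, Ctla4, Prdm1, Maf and Nfil3. Beside these counts, the shares of all genes that rose and fell were 14% and 16.8% in early and 8.44% and 5.59% in late Gata3 KO. They were 11% and 10.1% in early and 1.69% and 0.524% in late Bcl11b KO, and the list counts were not tested against them.

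In late WT Th2 cells, peaks of Bcl11b and of GATA3 were assigned to each of the 9 genes. After removal of peaks that overlapped an input peak, 72 of 15262 Bcl11b peaks and 149 of 27199 GATA3 peaks belonged to the members. All 9 had at least 1 peak of each antibody, against 32.8% of all gene symbols for Bcl11b and 38.2% for GATA3, and against 49.9% and 53.2% of the genes tested in the Gata3 experiment and 50% and 53.5% of those tested in the Bcl11b experiment. At least 3 Bcl11b peaks were assigned to 7 members (5.80% of all symbols) and at least 3 GATA3 peaks to 9 members (12.2% of all symbols). Among tested genes these shares were 10.2% and 19.2% in the Gata3 experiment and 10.1% and 19.3% in the Bcl11b experiment. These counts depend on how far a gene lies from its neighbours, since a peak goes to the closest start. Satb1 had 20 Bcl11b and 34 GATA3 peaks, Bach2 18 and 30, Lef1 9 and 16, and Il7r 7 and 21. Foxo1 had 5 Bcl11b and 15 GATA3 peaks, S1pr1 5 and 15, Klf2 6 and 7, Ccr7 1 and 6, and Tcf7 1 and 5. Of the members' Bcl11b peaks 35 (48.6%) overlapped a GATA3 peak by at least 1 base, against 43.5% of all Bcl11b peaks kept, and of their GATA3 peaks 41 (27.5%) overlapped a Bcl11b peak, against 25.8% of all GATA3 peaks kept.

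Fold enrichment below is the authors' value for each peak. The highest GATA3 peak of the set was assigned to Bach2, at chr4:32287569-32289055, with a fold of 25.69, rank 51 of 27199. It overlapped the highest Bcl11b peak of the set, chr4:32287549-32289108, with a fold of 6.33. By the authors' gene interval it lay 129 kb upstream of Bach2, but the RefSeq gene Bach2 begins further out, and all 16 Bcl11b and 26 GATA3 peaks listed upstream of Bach2 lay inside the RefSeq gene. Of the peaks listed upstream of Satb1, 3 of 7 Bcl11b and 4 of 8 GATA3 peaks also lay inside its RefSeq gene, as did 1 of 9 GATA3 peaks of Lef1. For Tcf7 the only Bcl11b peak, chr11:52314112-52314721 with a fold of 2.94, overlapped its highest GATA3 peak, chr11:52313929-52314727 with a fold of 11.76, 31.5 kb upstream of the start. Il7r had its highest GATA3 peak 88.9 kb upstream, chr15:9618538-9619160, with a fold of 10.2 and no Bcl11b peak over it. These were the members with a GATA3 fold of 10 or more, in 5 peaks, and no Bcl11b peak of a member reached 10.

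At the starts of these genes the antibodies differed. The share of all kept peaks that hold a start was not counted, so the difference cannot be called particular to these genes. A transcription start lay inside 7 of the members' Bcl11b peaks, of Lef1, Satb1 (2), Foxo1, Klf2, S1pr1 and Il7r, and inside 0 of their GATA3 peaks. Among all kept peaks the median length was 814 bases for Bcl11b and 493 bases for GATA3, and the part of peak length was not tested. The Klf2 peak, chr8:72318561-72319623 with a fold of 3.01, covers the promoter printed above, as do the Il7r peak, chr15:9529455-9530308 with a fold of 3.58, and the Foxo1 peak, chr3:52268065-52269267 with a fold of 2.14. At Lef1 the Bcl11b peak chr3:131111266-131113679, with a fold of 2.29, spans the start used by the authors. A GATA3 peak with a fold of 6.7, chr3:131111811-131112762, ends within the printed window, its summit 0.363 kb upstream of that start. Both peaks lie inside the RefSeq gene, which begins at 131110297, and neither reaches that outer start. In the main edgeR fit no RNA change of Lef1, Satb1, Klf2, S1pr1 or Il7r passed in either Bcl11b KO comparison. Foxo1 passed in the early one, a call that depended on the fit as described above. DESeq2 also called Lef1, Satb1 and S1pr1 early, and Il7r and Foxo1 late. Whether a peak at the start went with an RNA change was not tested. Each antibody had 1 ChIP library, so peak heights have no replicate error, and no ChIP library of KO cells was analysed here. The plot of peak positions shows the spread around the starts.

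**Figure D4:**
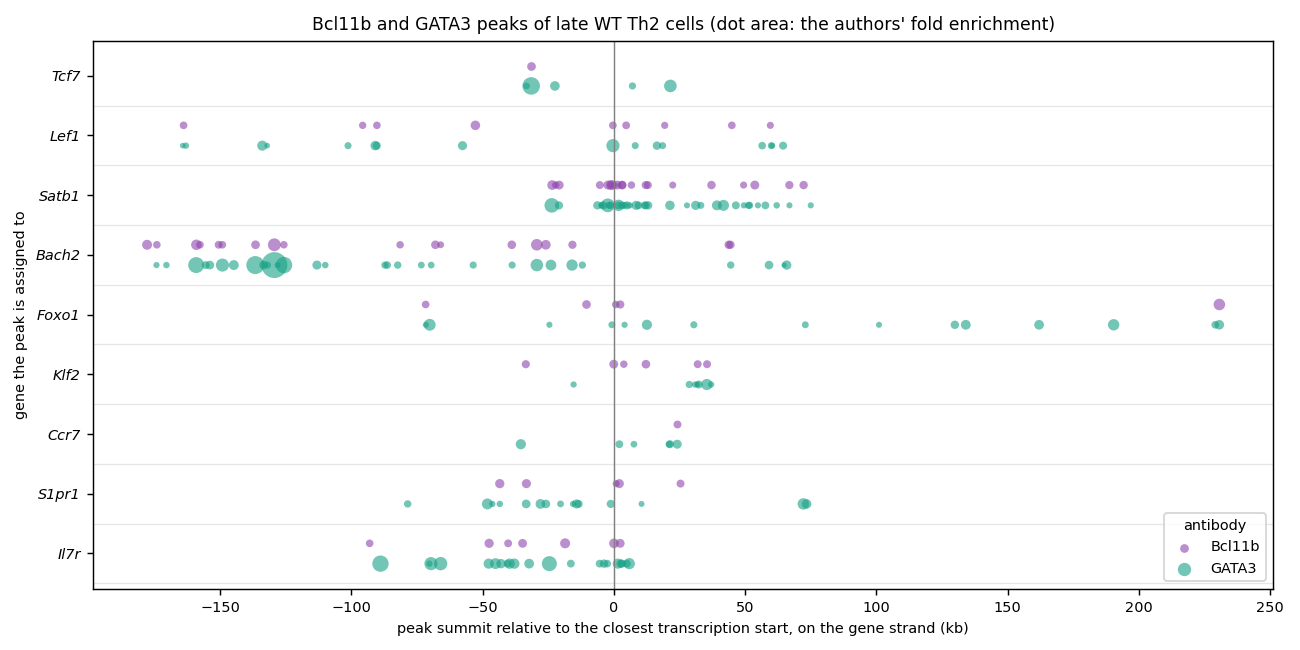
Summits of the 72 Bcl11b and 149 GATA3 peaks assigned to the 9 genes, in kb from the closest transcription start on the gene's strand (0 is the start, negative is upstream); dot area grows with the authors' fold enrichment. The largest dots are the GATA3 peaks upstream of the Bach2 start used by the authors (fold 25.69) and of Tcf7 (fold 11.76), and Bcl11b dots lie at or near 0 for Lef1, Satb1, Foxo1, Klf2, S1pr1 and Il7r.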

How the data were processed

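RNA was measured in 16 libraries and chromatin in 3 ChIP libraries (Bcl11b, GATA3 and input, all of late WT Th2 cells). RNA was amplified with the NuGEN Ovation V2 kit before sequencing, per the labels' protocols. The deposited tables give whole read counts and RPKM per transcript as computed by the authors. The submitters' processing notes name mm10, MACS 1.4.2, Novoalign, TopHat2 2.0.13 and Bowtie, with no role stated. In the peak lists the score is a multiple of −log10 of the p-value, the fold enrichment is that of the peak over its background, and the FDR is a percentage, per the file headers. Peaks were called per library and assigned by the authors to the closest start.

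One transcript was kept for each of 22878 symbols. A gene entered the test if its deposited RPKM reached 1 in 2 or more of an experiment's 8 libraries (10870 genes in the Bcl11b and 10601 in the Gata3 experiment). The tool was edgeR 4.0.16, quasi-likelihood F test, TMM scaling and 1 fit of 4 groups per experiment, with Benjamini-Hochberg adjustment and a threshold of 0.05. The standard error was the absolute log2 change divided by the root of F. Each stage difference is an interaction in that fit. Depth limits Klf2, the member with the fewest reads; p-values and standard errors cover the spread between 2 libraries per group. The early KO against WT test was also run on simulated counts. These had the same spread for all genes and changes in early KO only, so they do not bear on the other comparisons. Peaks that overlapped an input peak by 1 base were dropped (15262 of 17459 Bcl11b and 27199 of 28612 GATA3 peaks kept). The authors' gene intervals had an end within 1 base of RefSeq GRCm38.p6 for 9714 of 12584 genes (77.2%), so RefSeq sequences of that build were used; Ccr7 and S1pr1 were not in the sequence table. The RUNX, ETS and GC box letters were chosen after the data had been seen.

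Every member is reported. From each list of other genes, up to 4 that passed with the smallest p were eligible to be named in each KO comparison, and for each member the genes with the highest r. Some eligible genes are not reported here. The members and lists were chosen with earlier results of these data known. Alternatives were DESeq2 1.42.0, no filter, limma 3.58.1 on log2 RPKM with a pseudocount of 1 or of 0.1, a replicate block, subtraction of the odorant and vomeronasal receptor read rate, the longest transcript, fits without 1 library, fits of only the 4 libraries compared and, added after the data had been seen, a fit without the early Bcl11b WT libraries. Same-numbered libraries deviated together with correlations of 0.173 to 0.605 in the Gata3 experiment and -0.080 to 0.344 in the Bcl11b experiment; with 2 numbers per group these were not taken as pairs.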

Additional observations from a re-analysis of the deposited data

Results flagged for a closer look

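The Gata3 KO effect differed between late and early cultures by a test of the difference itself in 4 members (edgeR interaction term, log2 scale, late minus early). S1pr1 differed by 3.20 (KO effect -0.29 late and -3.48 early) and Il7r by 2.33 (0.38 late and -1.95 early). Foxo1 differed by 0.84 (0.26 late and -0.58 early) and Tcf7 by -1.73 (1.61 late and 3.35 early). In S1pr1 the 2 late Gata3 KO libraries had 54.0 and 46.4 CPM and the 2 early Gata3 KO libraries 6.06 and 6.64 CPM, while all 4 Gata3-experiment WT libraries lay between 56.6 and 73.7 CPM. Groups of 2 libraries do not allow a test for single libraries that stand apart.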

How the results depend on the processing

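The falls of S1pr1, Il7r and Ccr7 and the rise of Tcf7 in early Gata3 KO passed under every alternative run. Members called varied as follows, and the causes were not tested. In early Bcl11b KO against WT (1) the number was 4 with DESeq2, 2 without the filter, 5 with limma at either pseudocount, 0 with the replicate block, 0 in the 4-library fit and 0 to 3 with 1 library left out. For late Bcl11b KO against WT (0) it was 2 with DESeq2, 2 in the 4-library fit and 1 without the early WT libraries. For the Bcl11b stage difference (0) it was 1 with DESeq2, 1 without the filter, and 6 and 5 with limma at pseudocounts of 1 and 0.1. Late against early Bcl11b-experiment WT (4) gave 8 with limma at either pseudocount. For late Gata3 KO against WT (1) it was 3 with DESeq2, 5 without the filter, 5 with the replicate block (Lef1, Satb1, Ccr7 with adjusted p = 0.00372 and Il7r with 0.0442, beside Tcf7), 2 in the 4-library fit and 0 to 2 with 1 library left out. The Gata3 stage difference (4) gave 7 without the filter, 7 with the replicate block and 2 to 4 with 1 library left out, and late against early Gata3 KO (7) gave 3 to 8. At a fold enrichment of at least 10 there were 0 Bcl11b peaks, in 0 members and 0 of them over a GATA3 peak, and 5 GATA3 peaks, in 3 members, with 0 of them over a Bcl11b peak that also reached 10 (4 of the 5 overlapped a Bcl11b peak of lower fold).

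Directions turned mainly with the RPKM scale (limma, pseudocounts of 1 and 0.1), where the median gene moved by 0.86 and 1.14 in early Bcl11b KO against WT, by -1.04 and -1.33 in the Bcl11b stage difference and by 1.04 and 1.43 in late against early WT. In early Bcl11b KO the log2 changes were then 0.43 and 0.59 for Bach2, 0.55 and 0.58 for Foxo1, and 0.24 and 0.30 for S1pr1, and in late against early WT 0.58 and 0.61 for Foxo1. In late KO against WT, Lef1 was at -0.14 with both pseudocounts in the Bcl11b experiment, and Bach2 at -0.0050 and -0.0051 in the Gata3 experiment. With receptor reads subtracted, Ccr7 was at -0.056 in early Bcl11b KO. Leaving out 1 library gave -0.037 to 1.17 for Tcf7 and -0.14 to 0.14 for Ccr7 in early Bcl11b KO, -0.56 to 0.96 for Klf2 and -0.037 to 0.13 for Lef1 in late Bcl11b KO, -0.30 to 0.14 for Lef1 in early Gata3 KO, and -0.13 to 0.18 for Bach2 and -0.046 to 1.71 for Klf2 in late Gata3 KO. Over all genes, 2288 were called in early Bcl11b KO, against 6889 and 6960 with limma, 3595 without the filter and 1007 in the 4-library fit. In late Bcl11b KO 241 were called, against 588 with DESeq2, 1582 in the 4-library fit, 146 without the filter, 89 with limma at 0.1, 150 with receptor reads subtracted, 492 without the early WT libraries and 20 to 477 with 1 library left out. The Bcl11b stage difference had 352, against 902 with DESeq2, 529 without the filter, 6054 and 5845 with limma, 204 with the replicate block and 40 to 721 with 1 library left out. Late against early Bcl11b-experiment WT had 4527, against 7114 without the filter and 7771 and 7764 with limma. Late Gata3 KO had 1488, against 2270 without the filter and 2510 with the block, and the Gata3 stage difference 1294, against 2077 and 2388.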
